A study of Homo sapiens with 12 samples.

Results

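The 10 genes described here encode enzymes that convert steroid hormones or prepare them for excretion. They were read by gene symbol from deposited count tables of 60106 gene entries. They were the UDP-glucuronosyltransferases UGT2B15, UGT2B17, UGT2B11 and UGT2B28, the aldo-keto reductases AKR1C1, AKR1C2 and AKR1C3, the steroid reductase family genes SRD5A1 and SRD5A3, and the hydroxysteroid dehydrogenase HSD17B6. RNA came from PC3 and VCaP, established human prostate cancer cell lines, collected 72 hours after transfection with an siRNA against the transcription factor FOXA1 (siFOXA1) or with a non-targeting siRNA (NSI). Each of the 4 groups had 3 libraries. PC3 received 20 nM siRNA in RPMI-1640, and its libraries were made from polyadenylated RNA. VCaP received 40 nM in DMEM, and its libraries were made with a total RNA kit. Both media held foetal calf serum, and no label names an added steroid. The line was thus confounded with dose, medium, kit and the use of strand in counting. No label says how many siRNA sequences were used, or whether replicates were separate cultures, so p-values measure the spread between these libraries, which may be technical.

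Library totals were 123M to 188M counts in PC3 and 48.2M to 59.8M in VCaP. FOXA1 itself was at 303, 244 and 266 CPM with NSI and 163, 182 and 162 CPM with siFOXA1 in PC3, and at 458, 468 and 544 against 85.2, 73.6 and 83.0 CPM in VCaP, where CPM are counts scaled to library size with edgeR's TMM factors. It fell to 62.3% of its NSI mean in PC3 and to 16.5% in VCaP, with no overlap between groups. By exact permutation both lines had p = 0.1, which is the lower limit for groups of 3. All 4 epithelial markers examined (EPCAM, KRT8, KRT18 and CDH1) had counts in every group.

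Prostate cells can raise or lower their own supply of active androgen. SRD5A1 reduces testosterone and its precursor androstenedione to their more potent or more readily converted 5α forms, and AKR1C3 reduces androstenedione to testosterone. AKR1C2 and AKR1C1 reduce dihydrotestosterone to weaker diols, and HSD17B6 can oxidise one of these diols back to dihydrotestosterone. UGT2B15 and UGT2B17 then attach glucuronic acid to dihydrotestosterone and its metabolites, a step that ends their action and readies them for export. SRD5A3 carries the family name but is known best for reducing polyprenol to dolichol, the lipid carrier of protein glycosylation.

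The genes fell into nearly identical copies, and this bears on every value below, because the authors divided a read pair among all places to which it mapped. Coding sequences were compared from the GENCODE transcripts of GRCh37. UGT2B15 and UGT2B17 were 96.5% identical, and UGT2B11 and UGT2B28 97.0%, while the members of one pair were 83.7% to 84.9% identical to those of the other. A 60-base stretch of the coding sequence, bases 358 to 417 of UGT2B15 and UGT2B17 and bases 355 to 414 of UGT2B11 and UGT2B28, shows where the copies part. It is printed 5′ to 3′ with capitals at the 21 positions where the 4 sequences are not all the same.
UGT2B15: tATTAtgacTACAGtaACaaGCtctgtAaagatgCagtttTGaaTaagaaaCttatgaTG
UGT2B17: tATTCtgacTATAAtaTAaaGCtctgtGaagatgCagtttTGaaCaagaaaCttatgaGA
UGT2B11: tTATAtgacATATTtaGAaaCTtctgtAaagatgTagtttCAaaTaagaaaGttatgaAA
UGT2B28: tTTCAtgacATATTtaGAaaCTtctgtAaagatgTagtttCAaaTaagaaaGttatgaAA
The stretches lie within 1 exon each, at chr4:69535920-69535979 (UGT2B15, minus strand), chr4:69433786-69433845 (UGT2B17, minus strand), chr4:70080027-70080086 (UGT2B11, minus strand) and chr4:70146573-70146632 (UGT2B28, plus strand) on GRCh37. UGT2B15 and UGT2B17 differ here at 9 positions.

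The AKR1C copies were closer still. AKR1C1 and AKR1C2 were 98.0% identical over 972 coding bases, a difference of 19 bases, and AKR1C3 was 91.5% identical to AKR1C1 and 91.0% to AKR1C2. The stretch from coding base 103 to 162, in the second exon of each gene, holds 10 of the differences between AKR1C1 and AKR1C2. Capitals mark its 15 positions that are not the same in all 3 genes.
AKR1C1: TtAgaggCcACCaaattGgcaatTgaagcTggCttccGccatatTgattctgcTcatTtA
AKR1C2: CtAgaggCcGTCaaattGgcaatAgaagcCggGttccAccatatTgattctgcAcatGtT
AKR1C3: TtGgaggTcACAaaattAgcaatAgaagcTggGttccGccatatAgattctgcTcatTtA
On GRCh37 these are chr10:5008124-5008183 (AKR1C1, plus strand), chr10:5043796-5043855 (AKR1C2, minus strand) and chr10:5138620-5138679 (AKR1C3, plus strand). All 50-base windows of the coding sequences were sought in annotated transcripts of the other entries whose names begin with AKR1C or UGT2, within each family. Letter for letter, 54.5% of those in AKR1C1 and 57.2% of those in AKR1C2 occurred there, against 23.0% in AKR1C3. The shares were 36.1% for UGT2B15, 36.5% for UGT2B17, 49.1% for UGT2B11 and 36.3% for UGT2B28. Windows of UGT2B11 matched the pseudogene UGT2B25P most often, and those of UGT2B28 the pseudogene UGT2B24P. Counts of UGT2B15 and UGT2B17, of UGT2B11 and UGT2B28, and of AKR1C1 and AKR1C2 are therefore uncertain as single genes. The siFOXA1 effect is also given for their sum, which does not depend on how reads were divided between the summed genes. Reads shared with places outside a sum stay uncertain. UGT2B25P and UGT2B24P are in the transcripts searched, from a later GENCODE release, but no counted entry bears these names.

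**Figure D1:**
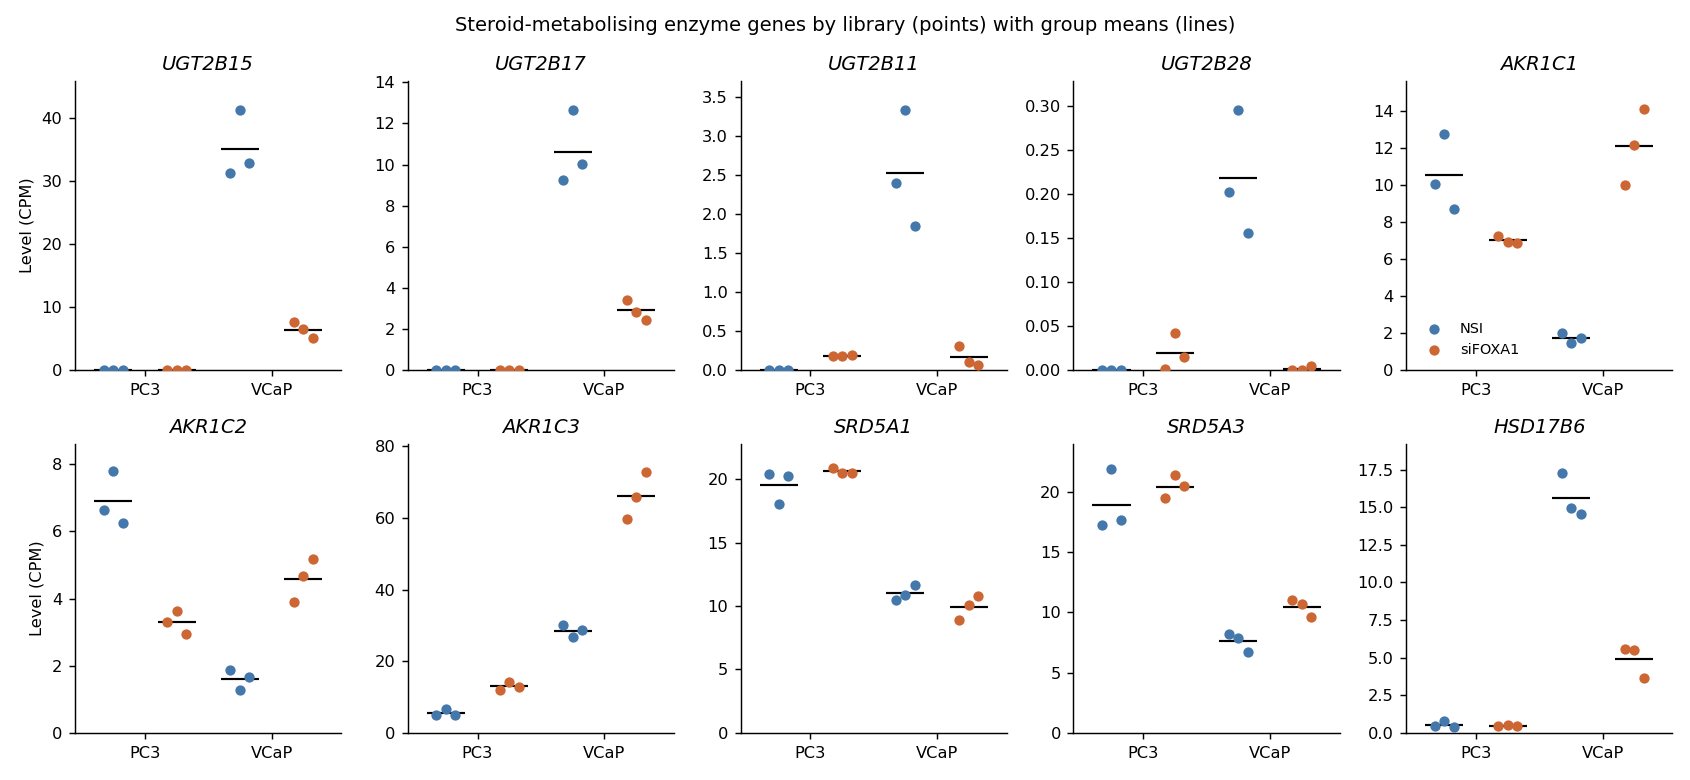
Level of each of the 10 genes in CPM (y axis, from 0, scaled per gene) in every library (points) of PC3 and VCaP, NSI in blue and siFOXA1 in orange, with group means as lines. In VCaP the UGT2B genes and HSD17B6 sit lower and the AKR1C genes higher in siFOXA1, while in PC3 AKR1C1 and AKR1C2 sit lower and AKR1C3 higher.

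Set side by side, the enzymes moved in opposite directions in VCaP: the glucuronosyltransferases and HSD17B6 fell and the AKR1C genes rose. A gene was called when edgeR's quasi-likelihood test gave an adjusted p under 0.05 over all genes tested. Of the 10 genes, 9 passed the count filter in VCaP. UGT2B15, UGT2B17, UGT2B11 and HSD17B6 were called lower, AKR1C1, AKR1C2, AKR1C3 and SRD5A3 were called higher, and SRD5A1 was not called. Over all 22939 genes tested in VCaP, 22.5% were called higher and 23.3% lower. The NSI and siFOXA1 values did not overlap for 8 of the 9 genes, against 55.9% of all genes tested. In PC3, 7 of the 10 passed the filter: UGT2B11 and AKR1C3 were called higher, AKR1C1 and AKR1C2 lower, and SRD5A1, SRD5A3 and HSD17B6 were not called. Over all 26478 genes tested in PC3, 13.9% were called higher and 13.9% lower, and the groups did not overlap for 5 of the 7 genes against 45.1% of all genes tested. With library size alone as the scaling, 4607 PC3 calls were higher and 2562 lower, against 3675 and 3669 with TMM, and no call on the 10 genes changed. When replicate number entered the PC3 fit as a block, calls went from 7344 to 11333 genes, and those on the 10 genes stayed as given.

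UGT2B15 (ENSG00000196620.9_3, chromosome 4, 69512348 to 69536346, minus strand), an enzyme that glucuronidates dihydrotestosterone and androstanediol, had the highest mean of the 10 genes in VCaP NSI, at 14.3 ± 3.49 TPM (TPM, the scale per length used to compare genes; SD, n = 3). It was at 31.4, 41.2 and 32.8 CPM in the NSI libraries and at 7.67, 6.58 and 5.05 CPM in the siFOXA1 libraries. Every siFOXA1 library lay far below every NSI library. It fell to 18.3% of NSI, from 35.1 ± 5.31 to 6.43 ± 1.32 CPM (SD, n = 3 each; log2 fold change −2.45, SE 0.16, adjusted p 2.7e-06). In bulk RNA, fewer cells with a transcript and less transcript per cell cannot be told apart. In PC3 UGT2B15 was near 0, with 0, 8 and 1.25 counts with NSI and 5, 5 and 3 in siFOXA1, and it did not pass the filter. The ratio of the summed counts there was 1.41 (95% interval 0.574 to 3.85, exact binomial, counting error only), so no difference was detectable at this depth.

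UGT2B17 (ENSG00000197888.2_2, chromosome 4, 69402902 to 69434245, minus strand), which glucuronidates testosterone and dihydrotestosterone, followed its close copy. In VCaP it was at 9.27, 12.6 and 10.0 CPM with NSI and at 3.43, 2.85 and 2.46 CPM with siFOXA1, with no overlap. It went to 27.4% of NSI, from 10.6 ± 1.77 to 2.91 ± 0.489 CPM (SD, n = 3 each; log2 fold change −1.87, SE 0.16, adjusted p 1.43e-05). As a share of the summed TPM of the 4 UGT2B genes, UGT2B15 went from 72.5% ± 0.766 to 67.6% ± 1.27 and UGT2B17 from 21.9% ± 0.441 to 30.8% ± 1.44 (SD, n = 3 each). The sum of UGT2B15 and UGT2B17 fell to 20.4% of NSI (log2 fold change −2.29, SE 0.15, adjusted p 3.25e-06). UGT2B17 had 0 counts in all 6 PC3 libraries. A count of 0 over a group of 3 PC3 libraries allows a level of up to 0.0064 CPM.

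UGT2B11 (ENSG00000213759.9_3, chromosome 4, 70065669 to 70080449, minus strand), a relative known for glucuronidating oxidised fatty acids, fell in VCaP and rose from almost nothing in PC3. In VCaP it was at 2.40, 3.33 and 1.84 CPM with NSI and at 0.308, 0.109 and 0.0714 CPM with siFOXA1. The siFOXA1 libraries held 15.5, 5.5 and 3.75 counts, so their spread was wide, but all lay below NSI. The mean went to 6.45% of NSI (log2 fold change −3.87, SE 0.39, adjusted p 4.73e-05). In PC3 the NSI libraries held 0.12, 0.5 and 1 counts and the siFOXA1 libraries 30.3, 23 and 32.8. These siFOXA1 libraries were close together, at 0.181, 0.183 and 0.189 CPM. The ratio of the summed counts was 53.4 (95% interval 11.6 to 362.6, exact binomial, counting error only). The fitted log2 fold change of 5.19 (SE 0.58, adjusted p 0.000423) rests on a prior count, since the 3 NSI libraries held 1.62 counts in all. UGT2B11 passed the PC3 filter through its siFOXA1 counts and the VCaP filter through its NSI counts, the group where it was high in each line. The direction of these calls adds no support beyond the counts. Exons of UGT2B11 overlap RP11-704M14.1 on the opposite strand over 20.0% of their length, and the PC3 counts ignored strand. RP11-704M14.1 held 0, 0.5 and 3.5 counts in PC3 NSI and 10.3, 8 and 15.3 in siFOXA1, so reads of the 2 genes cannot be told apart there.

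UGT2B28 (ENSG00000135226.17_3, chromosome 4, 70146217 to 70160768, plus strand), also able to glucuronidate androgens, did not pass the filter in either line. In VCaP it had 10.5, 14.8 and 9 counts with NSI and 0, 0 and 0.25 in siFOXA1. The ratio of the summed counts, siFOXA1 to NSI, had a 95% interval of 0 to 0.119 (exact binomial, counting error only). Where a setting let it pass the filter it was called lower, so that 5 of the 10 genes were called lower in VCaP with no filter, in the fit of all 12 libraries and without NSI replicate 3 or any siFOXA1 library. UGT2B28 could pass only through its NSI counts there, so these calls add no support. In PC3 it had no count in any NSI library and 0.25, 5.25 and 2.5 counts in siFOXA1. The 95% interval of the same ratio there began at 1.72 and had no upper limit. UGT2B11 and UGT2B28 summed had log2 fold changes of −3.99 in VCaP (SE 0.39, adjusted p 3.93e-05) and 5.33 in PC3 (SE 0.57, adjusted p 0.000358). This sum passed each filter through the same groups as UGT2B11, so it shares that limit. All 4 UGT2B genes summed fell in VCaP from 48.5 ± 7.79 to 9.51 ± 1.91 CPM, to 19.6% of NSI (log2 fold change −2.35, SE 0.15, adjusted p 3.41e-06). In PC3 the same sum went from 0.0247 ± 0.0320 to 0.232 ± 0.0279 CPM (SD, n = 3 each; log2 fold change 3.23, SE 0.71, adjusted p 0.011), still under 1 CPM. Without NSI replicate 2, which held 8 of the 9.25 UGT2B15 counts of its group, this log2 fold change was 5.13, and without NSI replicate 3 the adjusted p was 0.0498.

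The UGT2B genes stand in a row on chromosome 4, and their neighbours there were measured as well. In VCaP, 7 of the 11 entries whose symbols begin with UGT2 passed the filter, and 6 of them were called lower: UGT2B17, UGT2B15, UGT2B10, UGT2B7, UGT2B11 and UGT2B4. Over all genes tested in VCaP, 23.3% were called lower. Reads that mapped to several copies were divided among them, so these calls are not all separate measurements. UGT2B4, a bile acid glucuronosyltransferase, fell from 6.06 ± 0.243 to 0.373 ± 0.0963 CPM (SD, n = 3 each; log2 fold change −4.02, SE 0.17, adjusted p 3.17e-07). UGT2B10 fell from 3.49 ± 0.652 to 0.486 ± 0.176 CPM (log2 fold change −2.85, SE 0.25, adjusted p 1.84e-05). UGT2A3 was the 1 called higher, at 1.38, from a mean of 0.163 CPM. In PC3 4 of the 11 passed the filter, and UGT2B11, UGT2B10 and UGT2A3 were called higher, as were 13.9% of all genes tested. These genes passed through their siFOXA1 counts, the group where they were high, so the direction of the calls adds no support. UGT2B10 had 7, 12 and 1.25 counts there with NSI and 106.5, 137.7 and 186.5 in siFOXA1. UGT2B7, a glucuronosyltransferase of many drugs and steroids, was not called in PC3 (log2 fold change 0.91, SE 0.56, adjusted p 0.255), and its groups overlapped there. In VCaP it was called lower (−1.25, SE 0.23, adjusted p 0.002). UGT2A3 was called higher in both lines, and in each it passed the filter through its siFOXA1 counts.

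**Figure D2:**
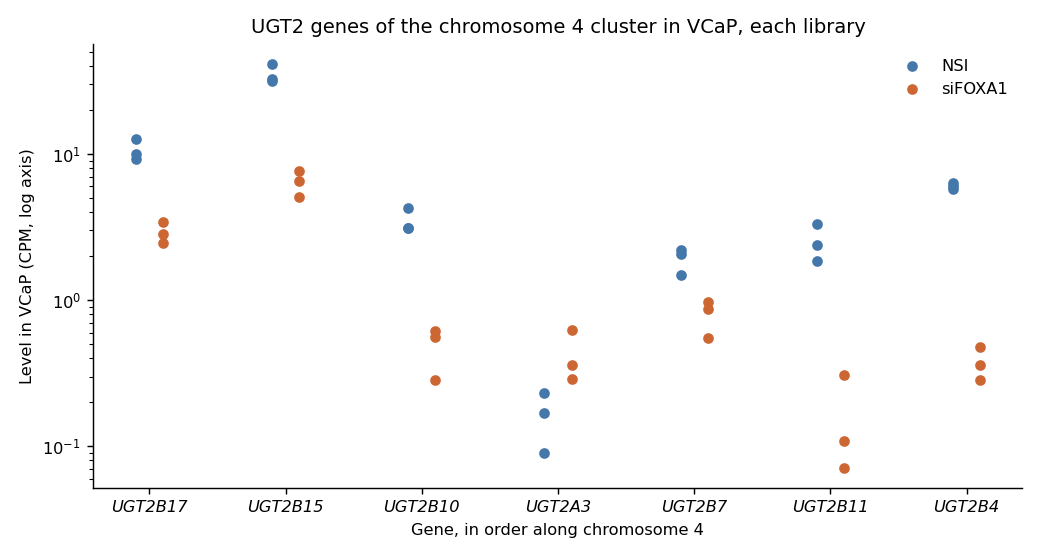
Level in VCaP (CPM, log axis) of the 7 UGT2 genes that passed the count filter, in their order along chromosome 4 (not to scale), 1 point per library, NSI in blue and siFOXA1 in orange. The siFOXA1 points lie below the NSI points for 6 genes and above them for UGT2A3.

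The promoters of the UGT2B genes were searched for the forkhead core strings TGTTTAC and TATTTAC, on both strands, in the 250 bases upstream of each start in a RefSeq table of GRCh38.p14. A match says only that these letters are present. Of the 10 genes, 7 had 8 entries there, and UGT2B17, UGT2B28 and HSD17B6 had none. UGT2B15 and UGT2B11, the UGT2B genes of the 10 with an entry, each held 2 matches, shown in capitals below, while the 6 entries of AKR1C1, AKR1C2, AKR1C3, SRD5A1 and SRD5A3 held none. Over all 35116 promoters, 5.27% held a match of either string and 0.256% held 2 or more. These shares were not matched for base composition.
UGT2B15: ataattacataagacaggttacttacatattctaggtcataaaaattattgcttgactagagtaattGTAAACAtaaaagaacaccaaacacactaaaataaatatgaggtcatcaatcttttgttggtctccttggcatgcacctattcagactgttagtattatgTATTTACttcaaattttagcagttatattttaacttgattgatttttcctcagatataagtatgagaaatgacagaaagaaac
UGT2B11: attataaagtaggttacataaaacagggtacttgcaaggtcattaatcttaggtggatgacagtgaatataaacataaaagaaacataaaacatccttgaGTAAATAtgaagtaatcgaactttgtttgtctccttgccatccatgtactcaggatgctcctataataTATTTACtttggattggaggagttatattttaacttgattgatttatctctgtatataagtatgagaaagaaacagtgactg
These windows are chr4:68670653-68670902 for UGT2B15 and chr4:69214749-69214998 for UGT2B11, both on the minus strand and printed in the direction of transcription. In each, a TATTTAC lies close to the same distance from the start, 83 to 77 bases upstream in UGT2B15 and 82 to 76 in UGT2B11. The other match is on the reverse strand, a TGTTTAC 183 to 177 bases upstream in UGT2B15 and a TATTTAC 150 to 144 bases upstream in UGT2B11. Of the 7 entries for UGT2 genes, 4 held a match (UGT2A2, UGT2B10, UGT2B11 and UGT2B15). UGT2B7, also called lower in VCaP, held none, nor did UGT2A1 and UGT2A3. UGT2B4, called lower there too, had no entry.

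In contrast to the glucuronosyltransferases, all 3 AKR1C genes rose in VCaP, and AKR1C3 rose in PC3 while AKR1C1 and AKR1C2 fell there. AKR1C3 (ENSG00000196139.13_4, chromosome 10, 5091004 to 5149878, plus strand) had the highest TPM of the 3 in both lines, at 10.7 ± 0.835 TPM in VCaP NSI and 4.39 ± 0.686 TPM in PC3 NSI (SD, n = 3 each). This order rests on the deposited exon lengths, which were 7077 bases for AKR1C1, 4306 for AKR1C2 and 2231 for AKR1C3, although the coding sequences were all 972 bases long. By CPM, with no length scaling, the order in PC3 NSI was the reverse, with AKR1C1 at 10.5 ± 2.06, AKR1C2 at 6.89 ± 0.807 and AKR1C3 at 5.56 ± 0.933 CPM (SD, n = 3 each). In VCaP its level was 29.99, 26.8 and 28.8 CPM with NSI and 59.6, 65.7 and 72.7 CPM with siFOXA1. In PC3 it was 5.11, 6.63 and 4.93 CPM with NSI and 12.1, 14.3 and 12.9 CPM with siFOXA1. Each siFOXA1 library stood above each NSI library of its line. The rise was 2.31-fold in VCaP (log2 fold change 1.21, SE 0.08, adjusted p 3.7e-06) and 2.36-fold in PC3 (log2 fold change 1.24, SE 0.14, adjusted p 0.00042).

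AKR1C1 (ENSG00000187134.13_3, chromosome 10, 5005445 to 5025475, plus strand), which also inactivates progesterone, had the largest rise of the 10 genes in VCaP by fold. It went from 2.00, 1.45 and 1.73 CPM in NSI to 10.0, 12.2 and 14.11 CPM with siFOXA1, a 7.00-fold rise (log2 fold change 2.80, SE 0.16, adjusted p 1.55e-06). In PC3 it was at 10.1, 12.8 and 8.74 CPM with NSI and 7.24, 6.92 and 6.88 CPM with siFOXA1, so the groups did not overlap but the lowest NSI library was near the siFOXA1 libraries. The level fell to 66.6% of NSI (log2 fold change −0.59, SE 0.14, adjusted p 0.0163). This call was lost without siFOXA1 replicate 1 (−0.58, adjusted p 0.0753) and without siFOXA1 replicate 3 (−0.57, adjusted p 0.0545), which left AKR1C2 as the 1 gene of the 10 called lower in PC3. Without NSI replicate 2 the fall was smaller but still called (−0.38, adjusted p 0.0249). Over 15 alternatives, paralogue sums apart, its adjusted p ran from 0.00217 to 0.0753.

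AKR1C2 (ENSG00000151632.17_4, chromosome 10, 5029592 to 5046215, minus strand), the reductase most active on dihydrotestosterone, moved with AKR1C1. In VCaP it was at 1.87, 1.27 and 1.66 CPM with NSI and 3.91, 4.67 and 5.17 CPM with siFOXA1, a 2.87-fold rise (log2 fold change 1.52, SE 0.17, adjusted p 7.58e-05). In PC3 it was at 6.63, 7.80 and 6.25 CPM with NSI and 3.31, 3.63 and 2.95 CPM with siFOXA1. The groups were well apart there, and the level fell to 47.9% of NSI (log2 fold change −1.06, SE 0.13, adjusted p 0.000746). AKR1C1 and AKR1C2 summed rose 5.01-fold in VCaP (log2 fold change 2.32, SE 0.15, adjusted p 3.55e-06) and fell to 59.2% of NSI in PC3 (log2 fold change −0.76, SE 0.13, adjusted p 0.00318).

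The promoters of AKR1C1 and AKR1C2 were almost the same sequence, and 100 bases of each are printed to show it, with the single differing base in capitals. The stretch ends at the last base of the AKR1C1 window and 4 bases before the end of the AKR1C2 window.
AKR1C1: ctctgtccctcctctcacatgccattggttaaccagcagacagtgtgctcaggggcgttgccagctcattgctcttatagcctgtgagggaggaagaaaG
AKR1C2: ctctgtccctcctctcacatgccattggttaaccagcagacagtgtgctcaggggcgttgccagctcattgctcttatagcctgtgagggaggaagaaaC
These are chr10:4963315-4963414 on the plus strand and chr10:5003862-5003961 on the minus strand of GRCh38.p14, from the RefSeq table. Laid over each other with a shift of 4 bases, the 250-base windows matched at 245 of 246 positions.

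The make-up of the AKR1C transcripts shifted differently in the 2 lines. As a share of the summed TPM of the 3 genes, AKR1C3 held 43.6%, 45.1% and 45.1% in the PC3 NSI libraries and 75.2%, 77.9% and 77.7% in siFOXA1, with AKR1C1 and AKR1C2 taking the rest. In VCaP AKR1C3 held 94.9%, 96.0% and 95.3% with NSI and 92.0%, 91.3% and 91.1% in siFOXA1. These shares rest on the exon lengths given above. They did not overlap between groups in either line, and they moved up in PC3 and down in VCaP. By exact permutation, two-sided, both lines had p = 0.1, again the lower limit. In PC3 the total of the 3 genes was 23.0 ± 3.78 CPM with NSI and 23.4 ± 1.26 CPM with siFOXA1 (SD, n = 3 each; log2 fold change 0.03, SE 0.12, adjusted p 0.885). Its sign turned negative without NSI replicate 3 or siFOXA1 replicate 2. This total is of counts, in which genes with longer exons weigh more. By TPM, the scale of the shares, the PC3 total was higher with siFOXA1 and was not tested. AKR1C3 went from 4.39 to 11.4 TPM there, AKR1C1 from 2.62 to 1.93 and AKR1C2 from 2.82 to 1.49. In VCaP the total rose from 31.9 ± 2.18 to 82.7 ± 9.24 CPM, or 2.60-fold (log2 fold change 1.38, SE 0.09, adjusted p 3.1e-06). The neighbouring AKR1C4, mainly a liver enzyme, did not pass the filter in either line.

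**Figure D3:**
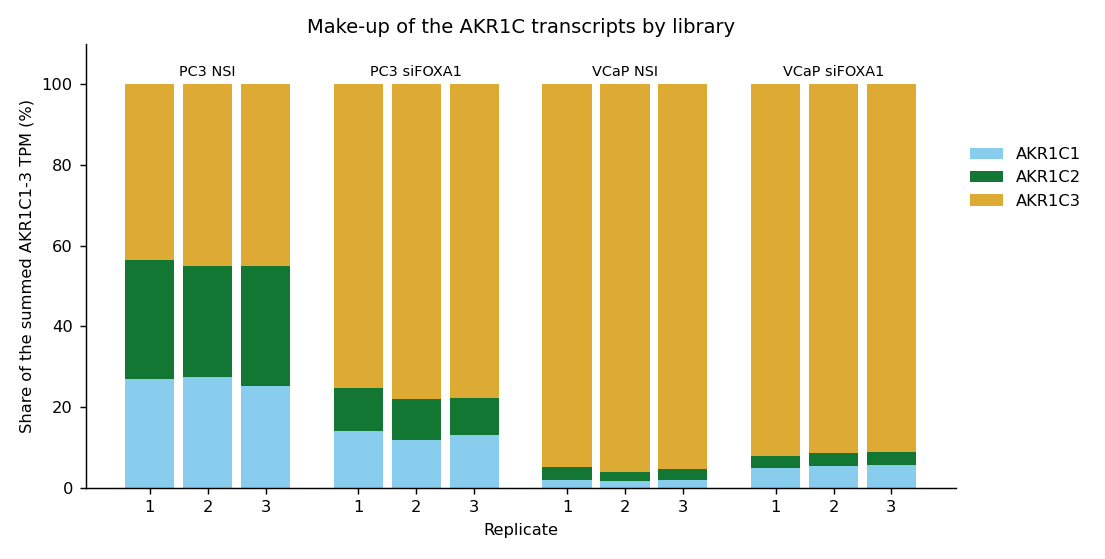
Share (%) of the summed TPM of AKR1C1, AKR1C2 and AKR1C3 held by each gene, 1 bar per library. AKR1C3 goes from 44.6% to 76.9% on average in PC3 and from 95.4% to 91.5% in VCaP.

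Among the reductases and dehydrogenases, HSD17B6 (ENSG00000025423.11_3, chromosome 12, 57145945 to 57181574, plus strand) fell in VCaP. It was at 17.3, 14.9 and 14.5 CPM with NSI and 5.61, 5.49 and 3.67 CPM with siFOXA1, with a wide gap between the groups. The mean went to 31.6% of NSI (log2 fold change −1.66, SE 0.15, adjusted p 2.58e-05). In PC3 the gene was low, at 0.437, 0.775 and 0.426 CPM with NSI and 0.449, 0.523 and 0.466 CPM with siFOXA1, and the groups overlapped (log2 fold change −0.18, SE 0.27, adjusted p 0.648). The sign there turned positive without NSI replicate 2 (0.20, adjusted p 0.516). Exons of HSD17B6 overlap PRIM1 on the opposite strand over 6.40% of their length. The VCaP counts used strand, but the PC3 counts ignored it, so reads of the overlap cannot be told apart there. PRIM1, a DNA primase subunit, was at 3.69, 7.55 and 4.21 CPM in PC3 NSI, highest in replicate 2 as HSD17B6 was, and at 3.56, 5.03 and 3.62 CPM with siFOXA1.

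SRD5A3 (chromosome 4, 56212276 to 56239263, plus strand) rose in VCaP from 8.25, 7.84 and 6.73 CPM in NSI to 11.01, 10.7 and 9.65 CPM with siFOXA1, a 1.38-fold rise (log2 fold change 0.46, SE 0.10, adjusted p 0.00499). In PC3 its groups overlapped, at 17.3, 21.9 and 17.7 CPM with NSI and 19.5, 21.4 and 20.5 CPM with siFOXA1 (log2 fold change 0.11, SE 0.11, adjusted p 0.491). Without NSI replicate 2 it was called there (0.27, adjusted p 0.0457, in a range of 0.0457 to 0.79 over 15 alternatives). Its exons overlap RP11-148K14.2 on the opposite strand over 4.73% of their length, which in PC3, where strand was ignored, went from 2.83 ± 0.262 to 3.68 ± 0.370 CPM (SD, n = 3 each; log2 fold change 0.38, SE 0.13, adjusted p 0.0607). SRD5A1 (chromosome 5, 6633456 to 6674499, plus strand) was not called in either line. Its level was 10.5, 10.9 and 11.7 CPM in VCaP NSI and 8.93, 10.1 and 10.8 CPM with siFOXA1, which overlapped (log2 fold change −0.15, SE 0.09, adjusted p 0.224). In PC3 it was 20.4, 18.1 and 20.2 CPM with NSI and 20.9, 20.5 and 20.5 CPM with siFOXA1, a gap too small for a call (log2 fold change 0.08, SE 0.09, adjusted p 0.54). SRD5A2, the prostate's other reductase of testosterone, did not pass the filter in either line.

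**Figure D4:**
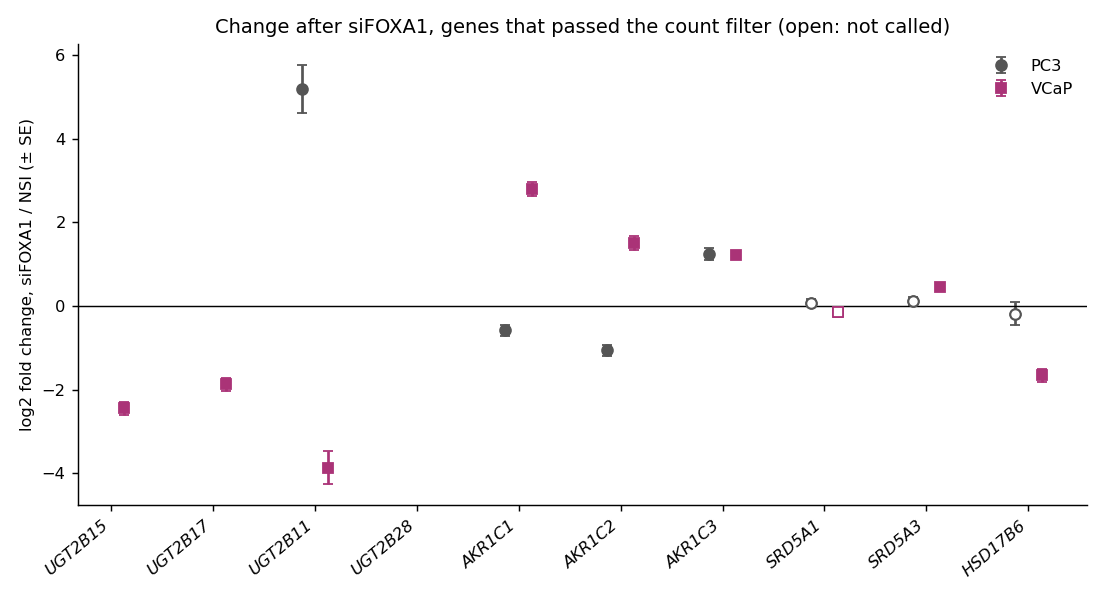
Log2 fold change, siFOXA1 against NSI (y axis), of the genes that passed the count filter, with SE as bars, PC3 as circles and VCaP as squares, open where not called. UGT2B11, AKR1C1 and AKR1C2 have opposite signs in the 2 lines, AKR1C3 lies at 1.24 and 1.21, and UGT2B28 passed the filter in neither line.

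The difference between the lines was tested directly, as the VCaP effect minus the PC3 effect in a fit of all 12 libraries. It was called for 22.1% of the 30450 genes tested. FOXA1 itself differed by −1.94 (SE 0.15, adjusted p 2.98e-07), so the lines are compared at unequal depths of knockdown. Of the 7 genes tested in both lines, 4 were called: UGT2B11 (−8.98, SE 0.72, adjusted p 4.47e-07), AKR1C1 (3.37, SE 0.23, adjusted p 8.29e-08), AKR1C2 (2.57, SE 0.22, adjusted p 9.16e-07) and HSD17B6 (−1.50, SE 0.30, adjusted p 0.00199). UGT2B11, AKR1C1 and AKR1C2 were called in opposite directions in the 2 lines. UGT2B11 passed the filter of each line through the group where it was high, so the directions of its calls add no support beyond its counts. For AKR1C3 the difference was −0.04 (SE 0.16, adjusted p 0.928). For SRD5A1 it was −0.24 (SE 0.13, adjusted p 0.217) and for SRD5A3 0.33 (SE 0.15, adjusted p 0.139). With the replicate number as a block the SRD5A3 difference was called (0.33, adjusted p 0.0424). UGT2B11 and UGT2B28 summed differed by −9.23 (SE 0.72, adjusted p 3.12e-07) and AKR1C1 and AKR1C2 summed by 3.06 (SE 0.21, adjusted p 8.76e-08). UGT2B28, tested in this fit although it passed the filter of neither line alone, was called at −11.47 (SE 2.24, adjusted p 0.00345). That value rests on a prior count and is no bound, since UGT2B28 had no count in PC3 NSI and 0.25 over VCaP siFOXA1. It entered the fit through VCaP NSI, with 34.31 counts, the group where it was high, so the call adds no support. UGT2B15 had a difference of −2.97 (SE 0.91, adjusted p 0.0291), but it rests on 9.25 counts summed over PC3 NSI and 13 over siFOXA1. That call was lost without PC3 NSI replicate 3 or PC3 siFOXA1 replicate 1 or 2 (adjusted p 0.0673, 0.0833 and 0.0912, in a range of 7.43e-05 to 0.0912 over 20 alternatives), and without PC3 NSI replicate 2 the difference was −5.27. No difference could be estimated for UGT2B17, which had no count in PC3. The 3 AKR1C genes summed differed by 1.33 (SE 0.16, adjusted p 2.38e-05) and the 4 UGT2B genes summed by −5.59 (SE 0.53, adjusted p 2.07e-06).

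By length-scaled level, the lines also began from different sets of enzymes, a comparison given without a test because line and kit coincide. In VCaP NSI the order was UGT2B15 (14.3 TPM), AKR1C3 (10.7), HSD17B6 (6.82), UGT2B17 (4.34), SRD5A3 (1.53), SRD5A1 (1.30), UGT2B11 (1.04), AKR1C2 (0.310), AKR1C1 (0.204) and UGT2B28 (0.102). Of the neighbours in this order, UGT2B15 and AKR1C3 (SD 3.49 and 0.835), SRD5A3 and SRD5A1 (0.278 and 0.104), and SRD5A1 and UGT2B11 (0.104 and 0.407) did not differ beyond their SDs. After siFOXA1 AKR1C3 led in VCaP at 22.6 ± 0.363 TPM, followed by UGT2B15 at 2.41 ± 0.705, HSD17B6 at 1.99 ± 0.593 and SRD5A3 at 1.93 ± 0.309 TPM (SD, n = 3 each), and the last 3 did not differ beyond their SDs. In PC3 NSI the order was SRD5A3 (7.98 TPM), SRD5A1 (4.85), AKR1C3 (4.39), AKR1C2 (2.82), AKR1C1 (2.62) and HSD17B6 (0.5002), and the UGT2B genes were at or under 0.0181 TPM. There SRD5A1 and AKR1C3 (SD 0.385 and 0.686) and AKR1C2 and AKR1C1 (0.292 and 0.471) did not differ beyond their SDs. After siFOXA1 AKR1C3 led there too, at 11.4 ± 0.739 TPM, ahead of SRD5A3 at 9.49 ± 0.264 TPM.

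Other genes of the same pathways were taken from fixed lists, and their counts are read beside the percentages of all genes given above. Of 18 other UDP-glycosyltransferases, 15 passed the filter in VCaP, with 10 called higher and 5 lower (median log2 fold change 2.37, against 0.02 over all genes), and 13 in PC3, with 11 higher and 0 lower (1.73 against −0.01). The UGT1A genes share their last exons, so their 9 entries are not separate measurements. UGT1A1, which glucuronidates bilirubin, rose in PC3 from 0.931 ± 0.143 to 3.61 ± 0.456 CPM (log2 fold change 1.95, SE 0.17, adjusted p 0.000103), and UGT1A6 rose in VCaP from 0.176 ± 0.0253 to 2.02 ± 0.198 CPM (3.51, SE 0.20, adjusted p 1.44e-06). In VCaP, then, the UGT1A entries moved opposite to UGT2B15 and UGT2B17. UGT8, which adds galactose to ceramide, fell in VCaP from 78.85 ± 4.20 to 21.5 ± 2.36 CPM (−1.87, SE 0.09, adjusted p 4.5e-07).

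The enzymes that supply UDP-glucuronic acid to the UGT2B proteins moved less. UGDH, which makes it, fell in both lines, by 0.54 on the log2 scale in VCaP (SE 0.09, adjusted p 0.00123) and by 0.46 in PC3 (SE 0.13, adjusted p 0.0301). UGP2, a step earlier, rose in VCaP (1.05, SE 0.08, adjusted p 8.16e-06) and fell in PC3 (−0.31, SE 0.08, adjusted p 0.0215). In PC3 both calls were lost with library size alone (adjusted p 0.0625 and 0.0729). They were also lost without each of NSI replicates 1 and 3 and siFOXA1 replicates 1 and 3 (adjusted p 0.0589 to 0.112), and that of UGDH without siFOXA1 replicate 2 (0.075) or with upper-quartile scaling (0.0566). Of the 5 genes of this list, 2 were called higher and 2 lower in VCaP, and 0 higher and 3 lower in PC3. The PC3 counts were 2 higher and 1 lower with library size alone, 2 higher and 3 lower with the block, and 0 lower without siFOXA1 replicate 1 or 3. UXS1, which uses UDP-glucuronic acid up to make UDP-xylose, rose in VCaP (1.00, SE 0.09, adjusted p 1.78e-05) and fell in PC3 (−0.43, SE 0.10, adjusted p 0.0126), a call lost without siFOXA1 replicate 1 or 3 (adjusted p 0.0985 and 0.0546). SLC35D1, which carries UDP-glucuronic acid into the endoplasmic reticulum, fell in VCaP (−0.58, SE 0.07, adjusted p 0.000109).

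Among 9 other aldo-keto reductases, 2 of the 5 tested in VCaP were called higher and 1 lower, and 1 of 7 was called lower in PC3, AKR1E2 (−1.32, SE 0.12, adjusted p 0.00013), and the block called 2 lower. In VCaP AKR1A1, an aldehyde reductase, was among those higher (0.24, adjusted p 0.0193) and AKR7A2 was lower (−0.36, adjusted p 0.0023). AKR1A1 was no longer called when NSI replicate 2 or siFOXA1 replicate 1 or 2 was left out (adjusted p 0.0583 to 0.0793), and both calls were lost in the fit of all 12 libraries (0.0796 and 0.0616). Of 13 genes of androgen synthesis, 6 were tested in VCaP, with 2 called higher and 1 lower. HSD3B1, which turns adrenal precursors into androstenedione, the substrate of AKR1C3, rose there from 0.218 ± 0.120 to 4.56 ± 0.410 CPM (SD, n = 3 each; log2 fold change 4.36, SE 0.26, adjusted p 1.76e-06), and CYP17A1 did not pass the filter in either line. STARD3, a cholesterol transfer protein, fell in VCaP (−0.37, adjusted p 0.0105). STS, the steroid sulfatase, was called higher there (0.30, adjusted p 0.0347), but not with library size alone, in the fit of all 12 libraries, or without NSI replicate 1 or 2 or siFOXA1 replicate 1 (adjusted p 0.0528 to 0.123), and its value was 0.18 without siFOXA1 replicate 1. In PC3 8 were tested and 1 was called higher, a call lost without NSI replicate 1 or 3 or any siFOXA1 library, and the block called 2 lower. Of 13 other hydroxysteroid and retinol dehydrogenases, 4 of 11 were called higher and 2 lower in VCaP, and 1 of 12 higher and 2 lower in PC3, where the block made these 2 and 5. RDH5, a retinol dehydrogenase, rose in PC3 from 1.62 ± 0.376 to 4.86 ± 0.458 CPM (1.58, SE 0.18, adjusted p 0.000468). HSD11B2, which inactivates cortisol, rose in VCaP (1.31, SE 0.15, adjusted p 0.000111). In PC3 it was called lower, from 1.59 ± 0.212 to 0.308 ± 0.0277 CPM (−2.35, SE 0.18, adjusted p 6.12e-05). HSD17B14 fell in VCaP (−0.70, SE 0.15, adjusted p 0.0047). HSD17B7, of cholesterol synthesis, was called lower in PC3 (−0.43, adjusted p 0.0431) and higher in VCaP (0.30, adjusted p 0.0232). HSD17B7 was no longer called in PC3 with upper-quartile scaling, library size alone or ties rounded to even, and without any NSI library or siFOXA1 replicate 1 or 3 (adjusted p 0.055 to 0.195, with a value of −0.25 without NSI replicate 2). In VCaP it was no longer called with no filter, in the fit of all 12 libraries, and without NSI replicate 2 or siFOXA1 replicate 2 or 3 (adjusted p 0.0515 to 0.0741). HSD17B2, which oxidises testosterone to androstenedione and so opposes AKR1C3, rose in VCaP from 0.732 ± 0.113 to 4.92 ± 0.570 CPM (2.75, SE 0.16, adjusted p 1.71e-06). Of 9 genes of sulfation, hydroxylation and uptake, 3 of 6 were called higher and 2 lower in VCaP, and 2 of 5 higher in PC3. PAPSS2, which makes the sulfate donor, was called lower in VCaP (−0.88, SE 0.11, adjusted p 0.000193) and higher in PC3 (0.34, SE 0.08, adjusted p 0.0172), a call that needed NSI replicate 3 and siFOXA1 replicate 3 (adjusted p 0.0851 and 0.0649 without each). PAPSS1, its relative, fell in VCaP (−0.39, SE 0.06, adjusted p 0.000433). SLCO1B3, an uptake transporter of steroid conjugates, rose in PC3 (0.57, SE 0.09, adjusted p 0.00321). SULT2A1, the sulfotransferase of dehydroepiandrosterone, rose in VCaP from 0.0721 ± 0.0335 to 3.10 ± 0.593 CPM (5.44, SE 0.30, adjusted p 1.33e-06).

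**Figure D5:**
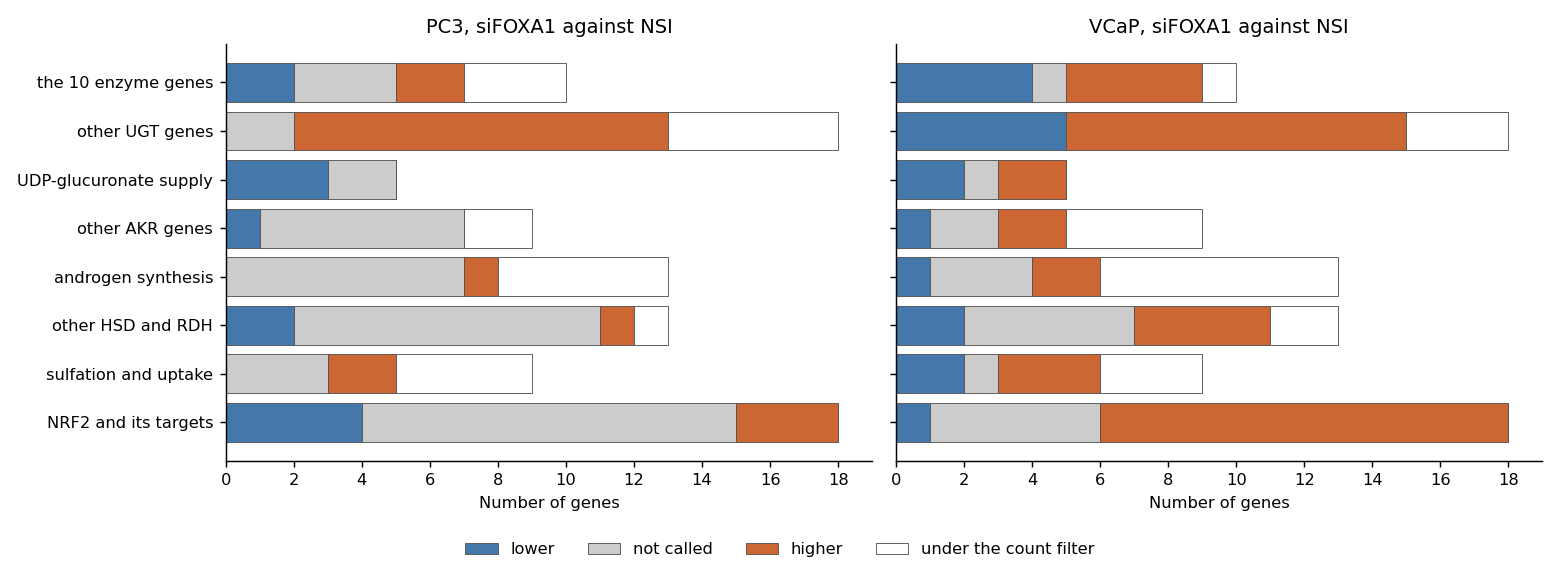
Number of genes (x axis) called lower (blue), not called (grey), called higher (orange) or under the count filter (white) in PC3 (left) and VCaP (right), for the 10 enzyme genes and 7 other lists (y axis). In VCaP 12 of 18 genes of the NRF2 list were called higher and 1 was called lower.

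AKR1C genes and UGT1A genes are textbook targets of NRF2, the transcription factor of the oxidative stress response, so a list for this factor was read beside the enzymes. Of 18 genes of the NRF2 list, which does not hold the AKR1C genes, 12 were called higher and 1 lower in VCaP (median log2 fold change 0.55), and 3 higher and 4 lower in PC3 (median 0.03), where the block called 5 higher. The 4 lower calls in PC3 were 2 without NSI replicate 3 or siFOXA1 replicate 1, and the 1 in VCaP was lost in the fit of all 12 libraries and without NSI replicate 1 or 3 or siFOXA1 replicate 1 or 2. HMOX1, which degrades heme, rose in VCaP from 0.450 ± 0.0329 to 17.3 ± 5.28 CPM (5.26, SE 0.26, adjusted p 6.69e-07) and in PC3 from 17.6 ± 3.68 to 64.6 ± 5.21 CPM (1.87, SE 0.15, adjusted p 6.47e-05). NQO1, the quinone reductase, rose in VCaP (1.29, SE 0.09, adjusted p 3.98e-06), as did SLC7A11, the cystine transporter (1.48, SE 0.08, adjusted p 1.28e-06), and TXNRD1, thioredoxin reductase (0.72, SE 0.07, adjusted p 2.83e-05). In PC3 GCLM, of glutathione synthesis, rose (0.67, SE 0.12, adjusted p 0.00465), while GSR, glutathione reductase, fell (−0.74, SE 0.08, adjusted p 0.000442), as did SRXN1, sulfiredoxin (−0.41, SE 0.08, adjusted p 0.00786). The part of this factor in the change of the enzymes was not tested.

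Markers of other cell types were read in the same libraries. Their summed level over 7 genes (ALB, APOA1, COL1A1, DCN, LUM, PTPRC and CD3E) was 79.6 to 85.4 CPM in VCaP NSI and 5.48 to 8.28 CPM with siFOXA1, and none was at 0 over a whole group. Of 3 tested, 2 were called lower, ALB (−3.77) and LUM (−3.97), and 0 higher. ALB, serum albumin, a liver gene like several UGT2B genes, held most of this level, at 68.2, 69.9 and 69.2 CPM with NSI and 6.13, 4.93 and 4.13 CPM with siFOXA1. In PC3 the sum was 20.0 to 23.0 CPM with NSI and 30.2 to 33.5 CPM with siFOXA1, with 2 of 3 called higher, and COL1A1 held most of it. The 4 epithelial markers summed to 731.6 to 774.1 CPM in VCaP NSI and 714.9 to 774.4 CPM with siFOXA1, with 1 called lower, and in PC3 to 409.7 to 506.7 and 373.6 to 420.5 CPM, with 3 called lower and 1 higher. The part of these markers in the UGT2B and AKR1C results was not tested.

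The genes whose levels most resembled those of UGT2B15 and AKR1C3, the most abundant of each family, were named by Pearson's r of log2 CPM over the 12 libraries, as a description. The 12 points form 4 groups, so r mainly reflects the group means. For UGT2B15 they were HIST1H2AL (r = 0.999), CDH26 (0.997) and HIST1H2BB (0.997). The histone genes HIST1H2AL and HIST1H2BB were at 20.9 and 25.9 CPM in VCaP NSI and at 0.0830 and 0.0400 CPM in PC3 NSI. Since PC3 libraries held polyadenylated RNA and VCaP libraries total RNA, r cannot tell line from kit. CDH26, a cadherin, was at 39.8 CPM in VCaP NSI and 10.2 CPM with siFOXA1, and at 0.146 and 0.255 CPM in PC3. For AKR1C3 they were NEURL3 (0.994), GRAMD1C (0.991) and GNB5 (0.991). GRAMD1C, a sterol transfer protein, went from 7.08 to 12.5 CPM in VCaP and from 1.21 to 3.03 CPM in PC3, higher in siFOXA1 in both lines as AKR1C3 was.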

How the data were processed

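Gene counts of 12 libraries were used. The expected counts, deposited by the authors, came from featureCounts run on the GENCODE v28lift37 basic annotation of GRCh37, per the file headers, with pairs mapped at both ends, fragments divided among all their places and genes, and strand ignored for PC3 and reversed for VCaP. STAR 2.7.3a and Subread 2.0.0 are in the submitters' processing notes. Counts were rounded, ties upward, and fitted with edgeR 4.0.16 in R 4.3.3 (TMM factors 0.956 to 1.04, filterByExpr, quasi-likelihood test, two-sided, Benjamini-Hochberg over all genes, call under 0.05), per line on 6 libraries, and on all 12 for the difference of effects. SE was the log2 fold change over the square root of F. CPM and TPM came from unrounded counts. edgeR's coefficient of variation between replicates was 14.9% for PC3 and 9.89% for VCaP. The fit was tested on simulated data. Replicates differed by a chi-square of 9.80 to 141.4 per degree of freedom, so none was a copy.

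The genes, lists and tests were chosen with earlier results of these data known. Beyond the 10 genes and FOXA1, list genes were named if called with a mean of at least 1 CPM, at most the 4 smallest adjusted p per list and line, and 1 list is not reported here. Outside this rule, UGT2A3, UGT2B7 and UGT2B10 in PC3 and AKR1C4 were named for their place in the gene clusters, and SRD5A2 and CYP17A1 for their roles, after their values were seen. HSD11B2 in PC3 was also named outside it, as its change there was opposite to that in VCaP. Titles give NSI and siFOXA1 shared replicate numbers. Other deposited names carry different replicate numbers, and the titles were followed. In PC3, libraries sharing a number deviated together (r = 0.44, 0.59 and 0.25 over 16613 genes), so the number was taken as a likely pairing. The main fits held no term for it, so their p-values ignore it. Only the block fit, an alternative, used it. Alternatives were other scalings, no filter, DESeq2 1.42.0, the block, unrounded counts, a joint fit, paralogue sums and leaving out each library.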

Additional observations from a re-analysis of the deposited data

Results flagged for a closer look

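For 6 of the 10 genes the effect of siFOXA1 differed between the 2 lines, tested as VCaP minus PC3 on the log2 scale. Over all genes tested, 22.1% were called for this difference. The line was confounded with dose, medium, kit and use of strand. Knockdown was also unequal, with FOXA1 at 62.3% of NSI in PC3 and 16.5% in VCaP. UGT2B11 differed by −8.98, rising in PC3 from 1.62 counts summed over NSI and falling in VCaP. AKR1C1 differed by 3.37 and AKR1C2 by 2.57, both lower after siFOXA1 in PC3 and higher in VCaP. HSD17B6 differed by −1.50, called lower in VCaP and not called in PC3, where its level was under 1 CPM. UGT2B28 differed by −11.47 and UGT2B15 by −2.97, both on few counts: UGT2B28 had none in PC3 NSI, and UGT2B15 had 9.25 counts summed over PC3 NSI, with its call lost without PC3 NSI replicate 3 or PC3 siFOXA1 replicate 1 or 2.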

How the results depend on the processing

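Of 1447 tested values under alternatives, 1382 kept their direction and side of the threshold, and of 590 counts of genes, 530 stayed within 1.5 times the main count. The VCaP calls on 8 of the 10 genes and the PC3 calls on UGT2B11, AKR1C2 and AKR1C3 held under all 15 alternatives other than paralogue sums, while UGT2B28 in VCaP was added where it passed the filter. For UGT2B11 this adds no support beyond its counts, since it passed the filter of each line through the group where it was high. With counts summed over the 3 AKR1C genes, the PC3 value was 0.028 in place of those of AKR1C1, AKR1C2 and AKR1C3. Leaving out 1 library moved the genes called in PC3 from 7344 to between 3963 (without siFOXA1 replicate 1) and 7628, with 4738 without NSI replicate 3. The genes of the 10 called lower in PC3 were then 1 at the lowest and 2 at the highest. The sum of AKR1C1, AKR1C2 and AKR1C3 in PC3 ranged from −0.070 to 0.21 (−0.070 without NSI replicate 3, −0.017 without siFOXA1 replicate 2). HSD17B6 in PC3 ranged from −0.34 to 0.20, positive without NSI replicate 2. The AKR1C3 difference between lines ranged from −0.22 to 0.024, positive without VCaP siFOXA1 replicate 1. The difference for UGT2B15 and UGT2B17 summed (−2.82, adjusted p 0.038) ranged from −5.11 (without PC3 NSI replicate 2) to −2.34, and its call was lost without PC3 NSI replicate 1 or 3, PC3 siFOXA1 replicate 1 or 2, VCaP NSI replicate 2 or 3, or VCaP siFOXA1 replicate 2. The replicate block gave 11333 called genes for PC3 and 11474 for VCaP, where the numbers were not taken as a pairing (r = 0.11, 0.03 and 0.39), and among the 10 genes it changed only the call on the SRD5A3 difference. Rounding ties to even numbers, an alternative chosen after seeing the data, moved UGT2B11 in PC3 from 5.19 to 6.01. Counts of calls over the other lists also moved. The causes were not tested. The values of the UGT2B genes in PC3 and of UGT2B28 in both lines rest on few counts.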
